A study of Mus musculus with 4 samples.

Results

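Transcripts of 10 matrix metalloproteinase genes were compared between terminal end buds and ducts of the pubertal mouse mammary gland. The genes were Mmp2, Mmp3, Mmp7, Mmp9, Mmp10, Mmp11, Mmp12, Mmp13, Mmp14 and Mmp15, taken by their Ensembl IDs from a table of 28399 IDs, and all 10 were present. The rule names them by gene family and uses no measured value, but the family was taken up with earlier results of these data known. The symbols follow the list of IDs by which the family was chosen. Neither the expression table nor the reference tables used here pair Ensembl IDs with symbols, so that pairing was not checked, and other members of the family were not analysed here.

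A terminal end bud (TEB) is the club-shaped end by which a mammary duct grows through the fat pad at puberty. The duct is the tube that trails it. Both were dissected after collagenase-II digestion from the inguinal (number 4) glands of C57/BL6 females with no genetic change or treatment named, given as 5 to 6 weeks old in one label and as killed at 6 to 7 weeks in another. Each of the 4 samples was a pool of about 300 to 400 structures, and RNA of each was hybridised to one single-colour array, with 2 arrays for TEBs (TEB-1 and TEB-2) and 2 for ducts (DUCT-1 and DUCT-2). The submitters call the arrays technical replicates of pooled material, so every p-value below measures the spread between arrays and not between mice. The values are log2 expression values from RMA, a method that corrects background and puts arrays on a common scale. Signal of different genes on an array depends on their probes, so levels are compared between structures within a gene. Brightness across genes is used only to mark dim genes and to filter them. With 2 arrays a group, the small number of arrays limits the precision, which also depends on the spread of each gene.

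Matrix metalloproteinases are zinc-dependent endopeptidases that cut collagens, laminins and other proteins of the extracellular matrix. Most are secreted as inactive proenzymes and become active when the propeptide is removed, and tissue inhibitors of metalloproteinases block the active enzyme. In the mouse mammary gland, Mmp2 and Mmp3 are known for parts in ductal invasion and side branching, and much of the family is made by stromal or inflammatory cells as well as by epithelium. Whole dissected structures were measured, so fewer cells of a type and less RNA per cell cannot be told apart. The cell types in the structures were not checked against markers, because the IDs of marker genes could not be named. The collagenase step was shared by both groups, and its part in the values was not tested.

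All 10 genes had a lower mean in TEBs than in ducts, and 8 of the 10 were lower with no overlap between arrays. The mean was lower in TEBs for 40.2% of all 28399 genes, and 19.6% were lower without overlap. None of the 10 was higher without overlap, against 33.8% of all genes. The median difference of the 10 genes, TEB minus duct, was -0.52 log2 units, against 0.11 for all genes. Mmp9 and Mmp12 were at least 2-fold lower without overlap, which was 2 of the 10 genes against 2.63% of all genes. At a floor of 1.5-fold, Mmp2 and Mmp13 joined them, which was 4 of the 10 against 8.23% of all genes. The call required a difference of 1.5-fold or more and a Benjamini-Hochberg adjusted p below 0.05 in limma's moderated test. It was met by 0 of the 10 members and by 0% of all genes, so the gene-by-gene test called nothing on these 4 arrays. At an unadjusted limma p under 0.05, 6 of the 10 genes were lower in TEBs (Mmp2, Mmp9, Mmp11, Mmp12, Mmp13 and Mmp15), against 7.27% of all genes. These shares describe the members beside all genes and are no test of the family.

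**Figure D1:**
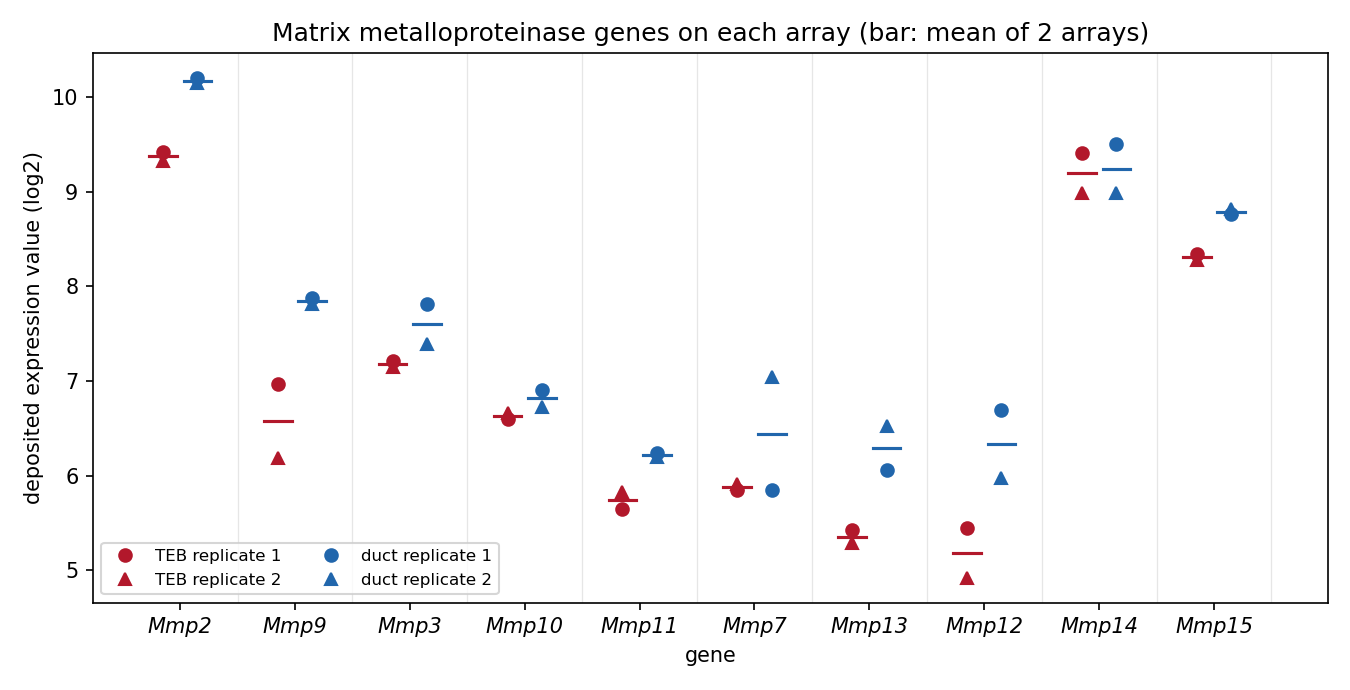
Deposited log2 expression value (vertical axis) of each of the 10 genes (horizontal axis) on the 4 arrays, with TEB in red, duct in blue, circles for replicate 1, triangles for replicate 2 and a bar at the mean of 2 arrays. For 8 genes both red points lie below both blue points, while Mmp7 and Mmp14 overlap.

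**Figure D2:**
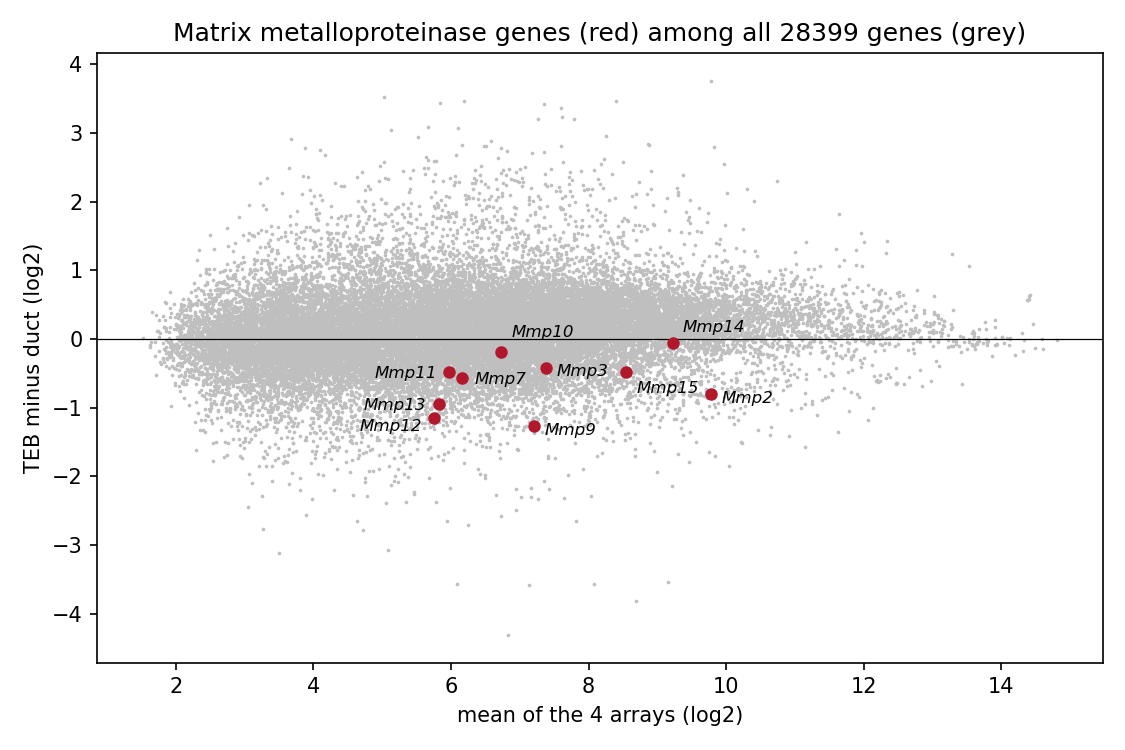
Difference between structures (TEB minus duct, log2, vertical axis) against the mean of the 4 arrays (log2, horizontal axis) for all 28399 genes in grey and the 10 matrix metalloproteinase genes in red. The red points run from -1.27 for Mmp9 to -0.05 for Mmp14, all below 0.

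Of the 10 genes, 5 lie together in the genome, and each of the 5 has at least 1 promoter that carries a shared short sequence. In the RefSeq annotation of GRCm38.p6, Mmp13, Mmp12, Mmp3, Mmp10 and Mmp7 belong to a run of 10 neighbouring protein-coding genes on chromosome 9, all of them named Mmp. The others lie on chromosomes 2 (Mmp9), 8 (Mmp2 and Mmp15), 10 (Mmp11) and 14 (Mmp14). Promoter sequences from RefSeq were at hand for 8 of the 10 genes, all but Mmp2 and Mmp9. The 250 bases before each annotated start were searched on both strands for the AP-1 motif TGANTCA, the element bound by Fos and Jun proteins, which reads the same on both strands. It was found for all 5 chromosome 9 members, though for Mmp12 and Mmp7 at only 1 of their 2 annotated starts. It was found for 0 of the 3 members on other chromosomes with a promoter (Mmp11, Mmp14 and Mmp15). The other genes of the run were not examined one by one. Of all 32851 promoters in the table, 6.75% hold the motif. That share counts promoters, whereas the counts of members are per gene, with a match at any start. A match describes the letters and does not show that a factor binds there, and no match says only that these letters are not in this window.

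The last 100 bases before the start are printed below 5′ to 3′, with the AP-1 motif in capitals. They show the element found for the 5 members on chromosome 9. Both starts of Mmp12 are shown as the only promoters at hand of a gene at least 2-fold lower in TEBs, and Mmp14 as a family member that has no motif and overlaps between structures. All of the promoters shown were chosen with values known, Mmp12 by the size of its difference and the others after the motifs were also seen. Coordinates are of GRCm38.p6, whereas the expression table was made with mm9.
Mmp13, chr9:7272414-7272513, plus strand: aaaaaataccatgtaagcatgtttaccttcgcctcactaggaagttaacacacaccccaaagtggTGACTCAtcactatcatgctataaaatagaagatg
Mmp12, upstream start, chr9:7344297-7344396, plus strand: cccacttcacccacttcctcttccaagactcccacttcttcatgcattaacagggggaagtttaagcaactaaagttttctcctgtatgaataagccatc
Mmp12, downstream start, chr9:7347274-7347373, plus strand: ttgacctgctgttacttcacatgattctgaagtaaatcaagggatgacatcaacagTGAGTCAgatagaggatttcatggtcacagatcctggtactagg
Mmp3, chr9:7445722-7445821, plus strand: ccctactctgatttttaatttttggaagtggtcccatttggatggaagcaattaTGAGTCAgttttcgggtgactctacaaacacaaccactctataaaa
Mmp10, chr9:7502242-7502341, plus strand: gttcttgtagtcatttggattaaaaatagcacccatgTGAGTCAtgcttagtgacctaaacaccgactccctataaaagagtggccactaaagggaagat
Mmp7, upstream start, chr9:7691990-7692089, plus strand: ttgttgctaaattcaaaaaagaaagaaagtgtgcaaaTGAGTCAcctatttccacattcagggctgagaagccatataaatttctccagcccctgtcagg
Mmp14, chr14:54431498-54431597, plus strand: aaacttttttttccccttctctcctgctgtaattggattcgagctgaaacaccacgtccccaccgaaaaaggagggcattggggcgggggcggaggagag

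The motif began 35 bases before the start in Mmp13, 46 in Mmp3, 63 in Mmp10, 63 at the upstream start of Mmp7 and 44 at the downstream start of Mmp12. Mmp13 carries TGACTCA and the other 4 carry TGAGTCA. The TATA box motif TATAAA, searched on both strands, was present in 4 of the 8 genes with a promoter, namely Mmp3, Mmp7, Mmp10 and Mmp13. It began 7 bases before the start in Mmp3, 16 in Mmp13 and 29 in Mmp10. At the upstream start of Mmp7 it was found at 26 and at 123 bases. The annotated starts, from which all these distances are counted, were not checked. Counted per promoter and not per gene, 12.4% of all promoters hold the TATA box motif. Differences between structures (TEB minus duct, described gene by gene below) ranged from -1.15 for Mmp12 to -0.19 for Mmp10 among the 5 genes with the AP-1 motif. Among the 3 without it they were -0.48 for Mmp11, -0.48 for Mmp15 and -0.05 for Mmp14, and the ranges overlap. Mmp2 and Mmp9, without a promoter at hand, are in neither group. Whether the motif bears on the differences was not tested.

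**Figure D3:**
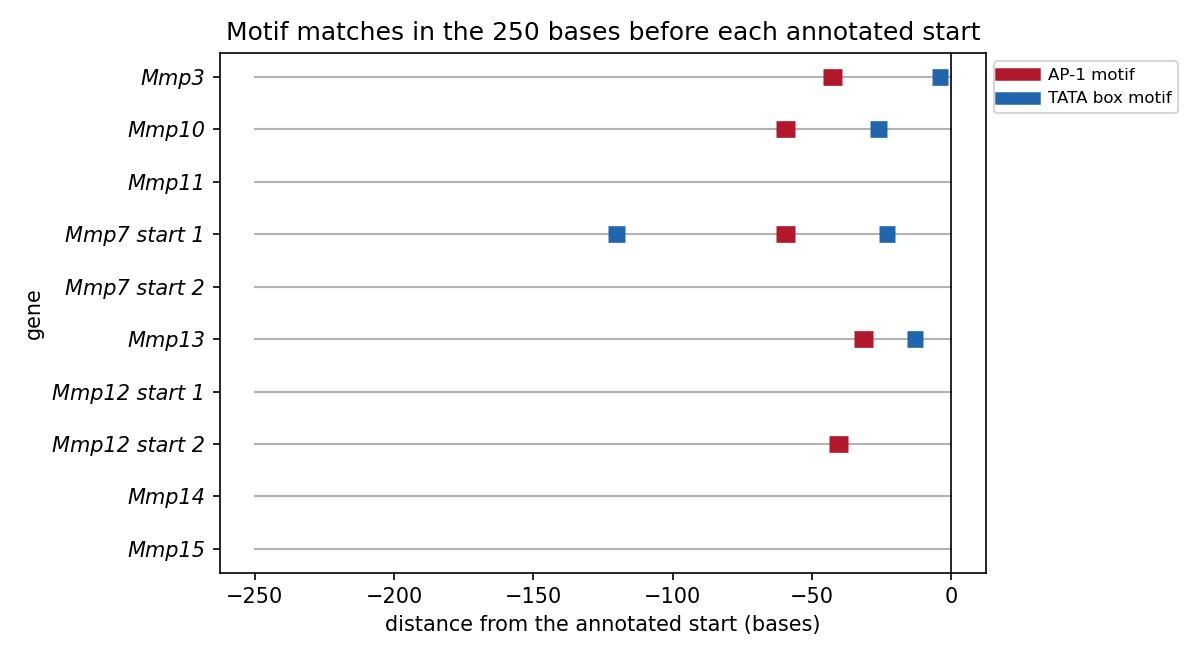
Position of AP-1 (red) and TATA box (blue) motif matches in the 250 bases before each annotated start of the 8 genes with a promoter at hand, on a horizontal axis of distance from the start in bases. The 5 AP-1 matches begin 35 to 63 bases before the start.

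The gelatinases Mmp2 and Mmp9 cut denatured collagen and the type IV collagen of basement membranes. Mmp2 (gelatinase A, ENSMUSG00000031740) measured 9.42 and 9.33 log2 units in TEBs and 10.20 and 10.15 in ducts. Both TEB arrays were low and both duct arrays high, and the arrays of a structure lay within 0.09 of each other. TEBs averaged 9.37 ± 0.06 (SD, n = 2) and ducts 10.18 ± 0.04 (SD, n = 2), and ducts were 1.74-fold higher (TEB minus duct -0.80, SE 0.17, 95% interval -1.26 to -0.35, limma adjusted p = 0.142). Across the 4 pairings of a TEB with a duct array, the Mmp2 fold ran from 1.66 to 1.83. This gene was called when limma's prior variance followed brightness (adjusted p = 0.0173), a fit that called 1.48% of all genes lower in TEBs, and it was called again in a fit restricted to the brighter part of the table, above the median mean (adjusted p = 0.0347), where 3.18% were called lower. The brightness trend on quantile-normalized values called it as well (adjusted p = 0.00775), where 2.67% of all genes were called lower.

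Mmp9 (gelatinase B, ENSMUSG00000017737) measured 6.97 and 6.18 in TEBs and 7.88 and 7.81 in ducts. The duct arrays nearly coincided, while the TEB arrays stood 0.78 apart and both lay below the ducts. TEBs averaged 6.58 ± 0.55 (SD, n = 2) and ducts 7.85 ± 0.05 (SD, n = 2), so that ducts were 2.41-fold higher (TEB minus duct -1.27, SE 0.31, 95% interval -2.10 to -0.45, limma adjusted p = 0.167). This was the largest mean difference of the 10 genes on the deposited values, and its size rested on TEB-2: the difference was -0.88 without that array and -1.66 without TEB-1. It was called in 1 alternative, the brightness trend on quantile-normalized values (adjusted p = 0.0377), which called 2.67% of all genes lower in TEBs.

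Of the stromelysins, Mmp3 and Mmp10 are broad-range enzymes that cut proteoglycans, laminin and fibronectin, and some stromelysins activate other proenzymes of the family. Mmp3 (ENSMUSG00000043613) measured 7.21 and 7.15 in TEBs and 7.81 and 7.39 in ducts. The structures did not overlap, but the lower duct array came within 0.18 of the higher TEB array. The fold of duct over TEB was 1.34 (TEB minus duct -0.42, SE 0.22, limma adjusted p = 0.360), and it was 1.16 without DUCT-1 and 1.55 without DUCT-2.

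Mmp10, a close relative of Mmp3 (ENSMUSG00000047562), measured 6.60 and 6.66 in TEBs and 6.91 and 6.73 in ducts. The gap between the structures was 0.06, about the distance of the TEB arrays from each other. Ducts were 1.14-fold higher (TEB minus duct -0.19, 95% interval -0.66 to 0.29, limma adjusted p = 0.594), and the difference was -0.10 without DUCT-1 and -0.28 without DUCT-2, so a difference was not detectable with these arrays. Mmp11 (ENSMUSG00000000901), which unlike most secreted members is activated inside the cell by furin-type proteases, measured 5.65 and 5.83 in TEBs and 6.24 and 6.19 in ducts. Its structures were 0.36 apart at the nearest arrays, and ducts were 1.39-fold higher (TEB minus duct -0.48, SE 0.18, limma adjusted p = 0.251).

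Mmp7 (ENSMUSG00000018623), a small enzyme that lacks the C-terminal hemopexin domain of most of the family and is typical of glandular epithelium, measured 5.85 and 5.91 in TEBs and 5.85 and 7.04 in ducts. DUCT-2 alone was high, and DUCT-1 was level with the TEB arrays, so the groups overlapped. The mean difference of -0.56 (95% interval -1.71 to 0.58, limma adjusted p = 0.508) came from that one array, since without DUCT-2 the difference was 0.034 and without DUCT-1 it was -1.16. The deposited Mmp7 values have at most 5 decimals and show no averaging over several numbers, unlike the other 9 genes, whose values fit means of at least 2 to 15 numbers.

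Mmp13 (ENSMUSG00000050578), the collagenase that cuts intact fibrillar collagen in rodents, measured 5.42 and 5.29 in TEBs and 6.06 and 6.53 in ducts. Both TEB arrays were low and close together, and the nearest duct array was 0.64 above them. TEBs averaged 5.35 ± 0.09 (SD, n = 2) and ducts 6.29 ± 0.33 (SD, n = 2), a 1.92-fold higher value in ducts (TEB minus duct -0.94, SE 0.23, 95% interval -1.55 to -0.32, limma adjusted p = 0.168).

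Mmp12 (ENSMUSG00000049723), the elastin-cutting enzyme known chiefly from macrophages, measured 5.44 and 4.92 in TEBs and 6.69 and 5.97 in ducts. The arrays of a structure were 0.52 and 0.72 apart, and the groups still did not overlap. TEBs averaged 5.18 ± 0.37 (SD, n = 2) and ducts 6.33 ± 0.51 (SD, n = 2), which put ducts 2.22-fold higher (TEB minus duct -1.15, SE 0.34, 95% interval -2.05 to -0.25, limma adjusted p = 0.195). Without TEB-2 the difference was -0.89 and without DUCT-1 it was -0.79, so 2-fold was not reached without either array, and it was -1.51 without DUCT-2. Mmp7, Mmp11, Mmp12 and Mmp13 had means over the 4 arrays below 6.31, the median of all genes. Detection calls were not used here, so how far these 4 stood above background is unknown.

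The membrane-type enzymes Mmp14 and Mmp15 are anchored in the cell surface, and Mmp14 is the main activator of pro-Mmp2. Mmp14 (ENSMUSG00000000957) measured 9.41 and 8.99 in TEBs and 9.51 and 8.99 in ducts. Replicate 1 was the higher array in both structures, by 0.42 and 0.52, and the structures overlapped almost fully. The difference was -0.05 (SE 0.28, 95% interval -0.79 to 0.69, limma adjusted p = 0.937), and it was 0.16 without TEB-2, 0.21 without DUCT-1, -0.26 without TEB-1 and -0.31 without DUCT-2. The interval allows a change of about the size seen for Mmp15 in either direction.

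Mmp15 (ENSMUSG00000031790) measured 8.34 and 8.28 in TEBs and 8.76 and 8.82 in ducts. The arrays of a structure agreed within 0.06, and the structures were 0.42 apart at the nearest arrays. Ducts were 1.40-fold higher (TEB minus duct -0.48, SE 0.17, 95% interval -0.93 to -0.03, limma adjusted p = 0.235), with 1.34 to 1.45 across the 4 pairings. The gene was called in the fit with a brightness trend on quantile-normalized values (limma adjusted p = 0.0362), which called 2.67% of all genes lower in TEBs. It was not called with that trend on the deposited values (limma adjusted p = 0.0863) or among genes above the median brightness (limma adjusted p = 0.0780).

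**Figure D4:**
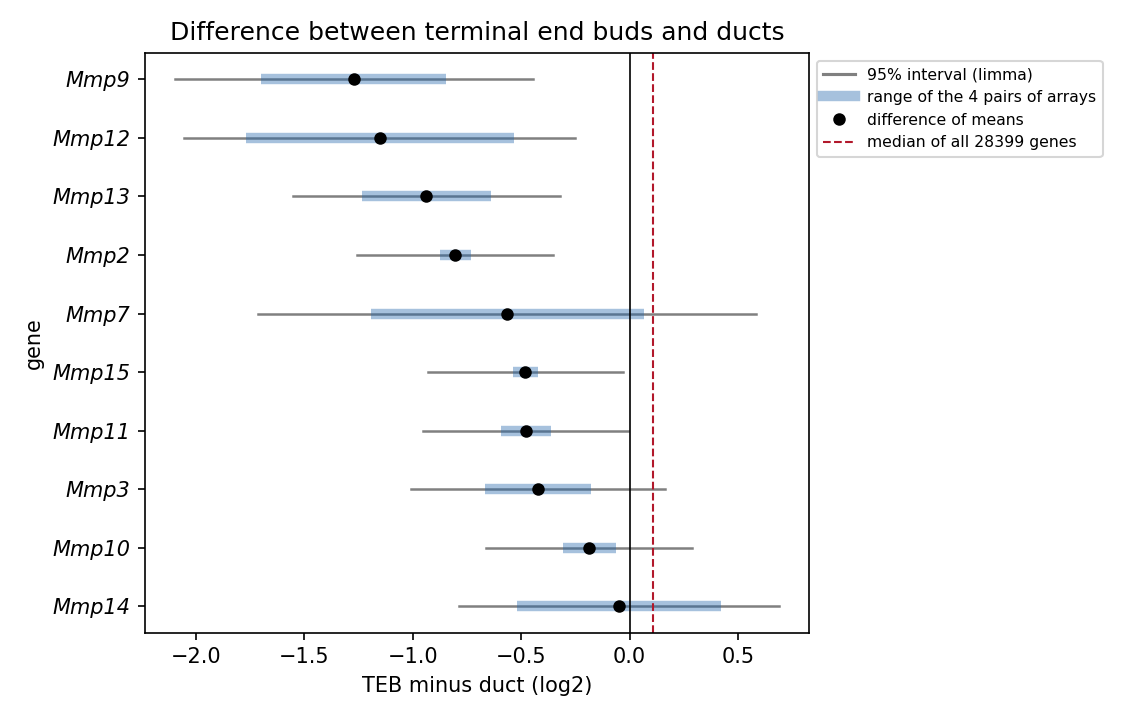
Difference between structures (TEB minus duct, log2, horizontal axis) for each gene, with the difference of means as a point, limma's 95% interval as a grey line, the range over the 4 pairs of a TEB with a duct array as a blue band and the median of all genes as a dashed red line at 0.11. The bands of Mmp7 and Mmp14 cross 0 and the other 8 lie wholly below it.

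The arrays differ in their medians. Array medians over all genes were 6.41 and 6.35 in TEBs and 6.34 and 6.20 in ducts. Lower quartiles lay closer together, at 4.53 and 4.53 in TEBs and 4.48 and 4.49 in ducts. Whether the medians differ for technical reasons was not tested. When each array was centred on its median, the median difference of the 10 genes was -0.64, and after quantile normalization it was -0.68, with 8 of 10 lower without overlap each time. The shares of all genes lower without overlap were then 26% and 25.9%. After median centring 3 genes were at least 2-fold lower without overlap (Mmp9, Mmp12 and Mmp13), against 3.62% of all genes. Quantile normalization raised the number at least 2-fold lower without overlap from 2 to 4, adding Mmp2 at -1.01 and Mmp13 at -1.04, against 3.42% of all genes. Without TEB-2 the number at least 2-fold lower was 0, against 3.64% of all genes, since Mmp9 and Mmp12 then stood at -0.88 and -0.89. Among the 14199 genes above the median brightness, 5 of the 6 members tested were lower without overlap, against 18.6% of those genes, and 1 (Mmp9) was at least 2-fold lower, against 1.82%.

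**Figure D5:**
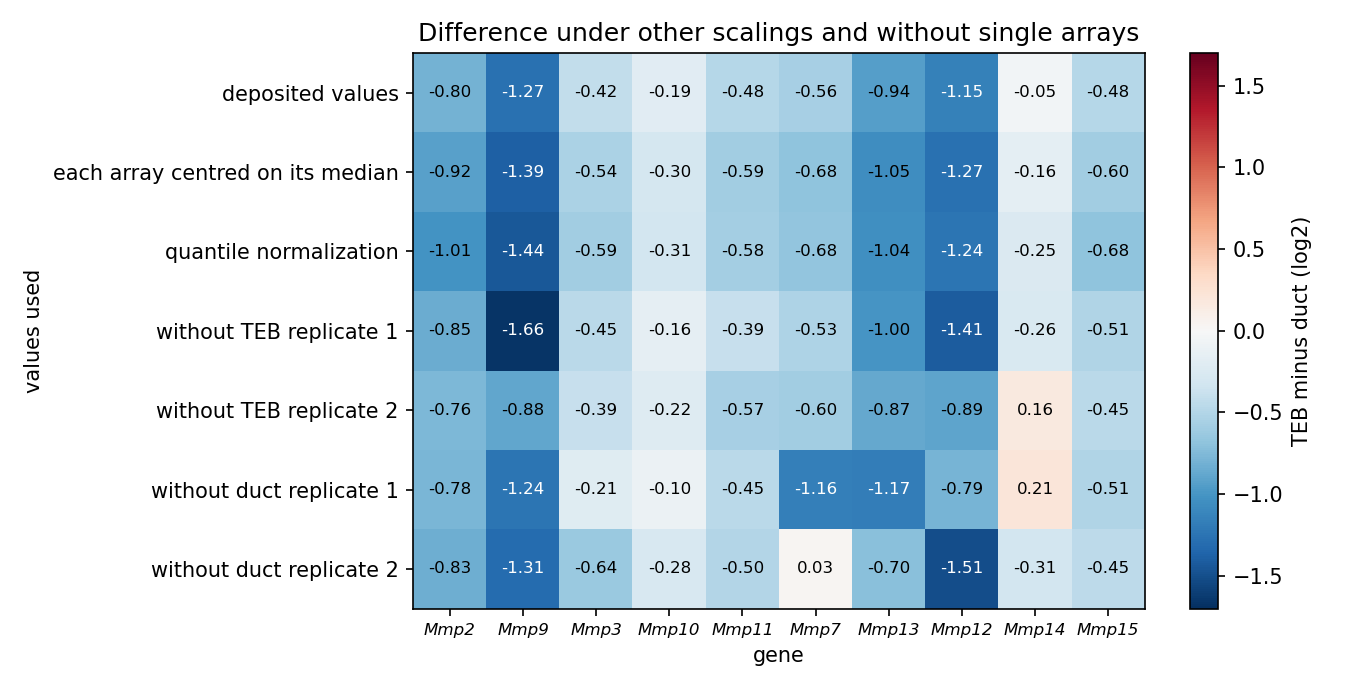
Difference between structures (TEB minus duct, log2, as colour and number) for each gene (columns) on the deposited values, after 2 other scalings and without each array in turn (rows). Only Mmp7 without DUCT-2 and Mmp14 without TEB-2 or DUCT-1 lie above 0.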

How the data were processed

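RNA of 2 TEB and 2 duct samples was measured on Affymetrix arrays, with 1.5 microg of total RNA labelled per sample, per the labels' protocols. The authors deposited log2 values, one per Ensembl ID and array, made with RMA and the build mm9 per the submitters' processing notes. For RMA's version and for how values were formed per ID, the answer is not given in the sources used here. Deposited values run from 1.15 to 14.9. Samples were grouped by title. All 28399 IDs were fitted with limma 3.58.1 in R 4.3.3 (lmFit, eBayes, Benjamini-Hochberg adjustment over all IDs, 2 residual and 2.51 prior degrees of freedom), with no block and no filter, and the script was tested on simulated data. The members and lists were chosen with earlier results of these data known. All 10 members are named. Lists of other family members, inhibitors, activators, AP-1 factors and cell type markers fixed by symbol could not be applied, since 0 IDs pair with a symbol in the tables used. Same-numbered arrays deviated together across genes with r = 0.086, and no label pairs them, so they were not treated as pairs. Alternatives were other scalings, variance priors, thresholds, a brightness filter, the replicate block and leaving out arrays.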

Additional observations from a re-analysis of the deposited data

How the results depend on the processing

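The count of 0 called members did not change with robust moderation, at an adjusted p under 0.10, or after median centring or quantile normalization. For these settings the share of all genes called is not given, so their counts are no result about the members. Without a fold floor or with a 2-fold floor the count of called members could only be 0. With a prior variance that follows brightness it was 1 (Mmp2, where 1.48% of all genes were called lower), with genes above the median brightness 1 (Mmp2, of 6 members tested, against 3.18%), and with the trend on quantile-normalized values 3 (Mmp2, Mmp9 and Mmp15, against 2.67%). With the replicate number as a block 0 members were called and the median difference was -0.52. For that fit, too, the share of all genes called is not given, so its count is no result about the members. Members at least 2-fold apart without overlap, all lower in TEBs, numbered 4 after quantile normalization (3.42% of all genes were lower), 1 among genes above the median brightness (1.82%), 4 at a floor of 1.5-fold (8.23%) and 0 to 3 without single arrays (3.4% to 3.86%). Members lower without overlap numbered 5 of the 6 brighter genes (18.6%) and 8 to 9 without single arrays, where no overlap is easier to reach (28.9% to 32.2%). The median difference ran from -0.64 to -0.52 without single arrays. Of 60 member values under the other scalings or without single arrays, the alternatives that can move a difference, 3 turned direction, Mmp14 without TEB replicate 2 (0.16) and without DUCT replicate 1 (0.21) and Mmp7 without DUCT replicate 2 (0.034), and the cause was not tested. Without single arrays Mmp14 ran from -0.31 to 0.21 and Mmp7 from -1.16 to 0.034. Fits without an array give its group no spread of its own and borrow that of the other structure. Signal over background, which limits the dim genes, is unknown.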
